A study of Homo sapiens with 8 samples.

Results

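The transcription factor families SOX, FOX, KLF and GATA were followed in OVCAR-8R and OVCAR-8 spheroids through the 81 genes, of 18417 genes named by an array probeset, whose symbol is SOX, KLF or GATA with a number, or FOX with a class letter and a number. A gene counted only where a probeset was annotated to it alone, and where a gene had several such probesets the one with the highest mean signal stood for it. The set holds 39 FOX, 19 SOX, 17 KLF and 6 GATA genes, read from 82 probesets, of which KLF13 has 2. FOXR2 lay below the filter on dim probesets in both lines and was not tested, so that 80 members stand among the 15931 genes tested.

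OVCAR-8R cells, named OVCAR-8C in the sample labels, are a cisplatin-resistant derivative of the human ovarian adenocarcinoma line OVCAR-8, selected with cisplatin in rising steps to 5 μM and stably resistant once the drug was withdrawn. Cisplatin is a platinum drug that crosslinks DNA. OVCAR-8R is set against the parental, cisplatin-sensitive OVCAR-8 line, which was not taken through that selection. Both were grown as compact spheroids of about 300 μm in agarose molds, and total RNA of 4 samples per line was read on Affymetrix Gene ST arrays. OVCAR-8R is a single selected line, so the arrays repeat that line and not the selection. No drug is named as present when the RNA was taken. In RNA from whole spheroids, fewer cells that carry a transcript and less of it per cell cannot be told apart.

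Values are log2 of the deposited RMA signal, so 1 unit is a 2-fold step. A difference is the OVCAR-8R mean minus the OVCAR-8 mean, with its standard error (SE) from limma and n = 4 arrays per line. A gene is said to have risen or fallen where the adjusted p was under 0.05 over all probesets tested and the difference was at least 2-fold. Signals of different probesets are not compared, since probes differ in brightness. The median signal lay between 6.68 and 6.73 on OVCAR-8R arrays and between 6.67 and 6.73 on OVCAR-8 arrays. Of 10 carcinoma epithelium markers, 6 rose, 2 were lower without reaching 2-fold, and the mean over the list was 8.64 to 8.82 on OVCAR-8R arrays and 6.86 to 7.0 on OVCAR-8 arrays. KRT7, MSLN and KRT8 of this list rose by 4.45 (SE 0.18), 3.83 (SE 0.15) and 2.97 (SE 0.087). PAX8, the Müllerian lineage factor, averaged 10.28 ± 0.16 in resistant and 6.51 ± 0.15 in parental spheroids (SD), whereas WT1, another marker of serous ovarian carcinoma, differed by -0.86 (SE 0.12). The leukocyte markers PTPRC, CD3E and LYZ were too dim in both lines to be tested, although CD68, a lysosomal protein also made outside macrophages, rose by 2.52 (SE 0.081). None of 6 endothelial and 4 granulosa cell markers tested passed in limma (0 and 0 also at an unadjusted p under 0.05 and in the methods' t-test), and of 6 fibroblast markers COL1A1 rose and LUM fell. LUM was dim, with an OVCAR-8R mean of 4.08 under the limit for dim probesets (5.11) and an OVCAR-8 mean of 5.23 near it (5.16), and its call was lost in limma's treat test, which asks for more than 2-fold, while under a stricter filter on low signal it was not tested. The part of these marker differences in the results on the factors was not tested.

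The 4 OVCAR-8R arrays fell into pairs. Arrays 1 and 3 deviated together (r = 0.427 over probesets) and so did arrays 2 and 4 (r = 0.484), which no label accounts for. Some OVCAR-8 arrays lay along the same split. OVCAR-8 array 2 deviated with OVCAR-8R arrays 1 and 3 (r = 0.353 and 0.276), and OVCAR-8 array 4 with OVCAR-8R arrays 2 and 4 (r = 0.383 and 0.443). For OVCAR-8 arrays 1 and 3 the correlations with OVCAR-8R arrays were weaker (r from -0.144 to 0.165). The factor genes lay along the split of the OVCAR-8R arrays more often in 1 direction than in the other. OVCAR-8R arrays 1 and 3 both stood above arrays 2 and 4 in 48 of the 81 members (59.3%) and below them in 13 (16.0%), beside 33.8% and 33.8% of the 15931 genes tested. The first pattern held for 13 of 19 SOX, 21 of 39 FOX, 9 of 17 KLF and 5 of 6 GATA genes. It was not particular to these families. The granulosa cell markers AMH and INHA and the endothelial markers PECAM1 and CDH5 also had it, while STAR and VWF of the same lists did not. Without OVCAR-8R arrays 1 and 3, 8 members rose and 3 fell, and without arrays 2 and 4, 7 rose and 2 fell, against 7 and 2 with all arrays.

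Each family reads DNA through its own conserved domain, and the domain sets the letters they prefer. KLF proteins carry zinc fingers that bind GC boxes and CACCC boxes, as their relatives the SP factors do, and they split into activators, repressors that recruit CtBP and repressors that recruit SIN3A with its histone deacetylases. FOX proteins bind through a winged helix, the forkhead, and some, such as FOXA1, open closed chromatin ahead of other factors. SOX proteins bend the minor groove with an HMG box and act with partners such as POU and PAX proteins, and GATA proteins bind GATA letters with zinc fingers and a cofactor of the FOG type. In the ovary and its tumours, GATA4, GATA6, FOXL2 and SOX17 are known lineage factors, KLF4 and KLF5 act in epithelia, and FOXM1 drives mitotic genes in dividing cells.

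Because KLF proteins bind GC and CACCC boxes, also in the promoters of KLF genes, the promoters of the KLF genes that rose are shown, with those letters in capitals. They run 5′ to 3′ along the gene, from 250 bases before to 50 bases after a RefSeq start, in the build GRCh38.p14. A single start was taken per gene, and stretches at any other start were not examined. RefSeq's table held 4 of the 5 (KLF3 was not matched). They lie at chr10:3785160-3785459 on the minus strand for KLF6, chr15:31326585-31326884 on the plus strand for KLF13, chr13:73054726-73055025 on the plus strand for KLF5 and chr2:10043579-10043878 on the plus strand for KLF11.
KLF6: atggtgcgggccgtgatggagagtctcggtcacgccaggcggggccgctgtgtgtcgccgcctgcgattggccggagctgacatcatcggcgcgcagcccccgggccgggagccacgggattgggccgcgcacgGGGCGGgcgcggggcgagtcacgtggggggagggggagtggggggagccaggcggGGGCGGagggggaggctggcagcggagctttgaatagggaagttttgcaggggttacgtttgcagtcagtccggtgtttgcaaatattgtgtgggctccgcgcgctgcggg
KLF13: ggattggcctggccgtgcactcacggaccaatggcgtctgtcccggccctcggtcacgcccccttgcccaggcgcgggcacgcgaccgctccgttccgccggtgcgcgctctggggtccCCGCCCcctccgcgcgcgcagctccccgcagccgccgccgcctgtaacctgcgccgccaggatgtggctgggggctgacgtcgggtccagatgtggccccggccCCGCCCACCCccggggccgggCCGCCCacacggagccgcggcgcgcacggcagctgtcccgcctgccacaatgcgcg
KLF5: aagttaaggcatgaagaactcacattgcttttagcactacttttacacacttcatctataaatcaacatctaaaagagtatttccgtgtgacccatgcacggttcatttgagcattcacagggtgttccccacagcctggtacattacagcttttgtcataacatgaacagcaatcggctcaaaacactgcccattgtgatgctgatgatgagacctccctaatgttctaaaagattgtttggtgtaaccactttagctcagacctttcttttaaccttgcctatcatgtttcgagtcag
KLF11: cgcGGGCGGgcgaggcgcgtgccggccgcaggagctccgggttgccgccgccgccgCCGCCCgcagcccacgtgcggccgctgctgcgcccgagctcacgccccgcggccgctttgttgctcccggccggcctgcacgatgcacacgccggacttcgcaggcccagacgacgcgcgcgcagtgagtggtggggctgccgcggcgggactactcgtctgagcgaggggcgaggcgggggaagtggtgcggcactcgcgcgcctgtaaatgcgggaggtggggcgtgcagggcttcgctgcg
The KLF6 stretch holds 2 GC boxes (GGGCGG on either strand), that of KLF13 holds 3 with 1 CACCC box (CCACCC on either strand) that overlaps a GC box, and that of KLF11 holds 2. The KLF5 stretch, at the start taken here, holds neither box and is 40.7% G and C, whereas the other 3 stretches are 70.7% (KLF6), 78.3% (KLF13) and 77.3% (KLF11). GC boxes were present in 41 of 58 member promoters that matched (70.7%) and in 44.6% of all 27305 promoters of this length, and CACCC boxes in 39.7% and 33.4%. The promoters of members and of all genes were not matched for gene type or for G and C content. Letters for the other families were about as frequent among members as elsewhere, with TGTTTAC of forkhead factors in 3.45% of member promoters and 3.41% of all, CATTGT of SOX factors in 12.1% and 11.0%, and AGATAA of GATA factors in 10.3% and 10.5%. These are matches of letters on either strand, with overlapping matches counted, and not sites shown to be bound.

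Over the 80 members tested, 7 rose and 2 fell in OVCAR-8R. The 7 were KLF6, FOXD1, SOX30, KLF13, KLF3, KLF5 and KLF11, and the 2 were SOX2 and FOXP2. The share that rose was 8.75%, where 8.37% of all 15931 genes rose, and the share that fell was 2.50%, where 8.37% of all genes fell. At an adjusted p under 0.05 with no limit on size, 21 members (26.2%) were higher and 12 (15.0%) lower in OVCAR-8R, beside 27.6% and 30.0% of all genes. All 4 OVCAR-8R arrays lay above all 4 OVCAR-8 arrays in 21 members and below them in 11, whereas 27.3% and 29.5% of all genes were so placed. The median difference was 0.066 over all members and -0.0097 over all genes tested. Most factors lay close to no difference, with 63 of 81 under 0.5 in size.

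**Figure D1:**
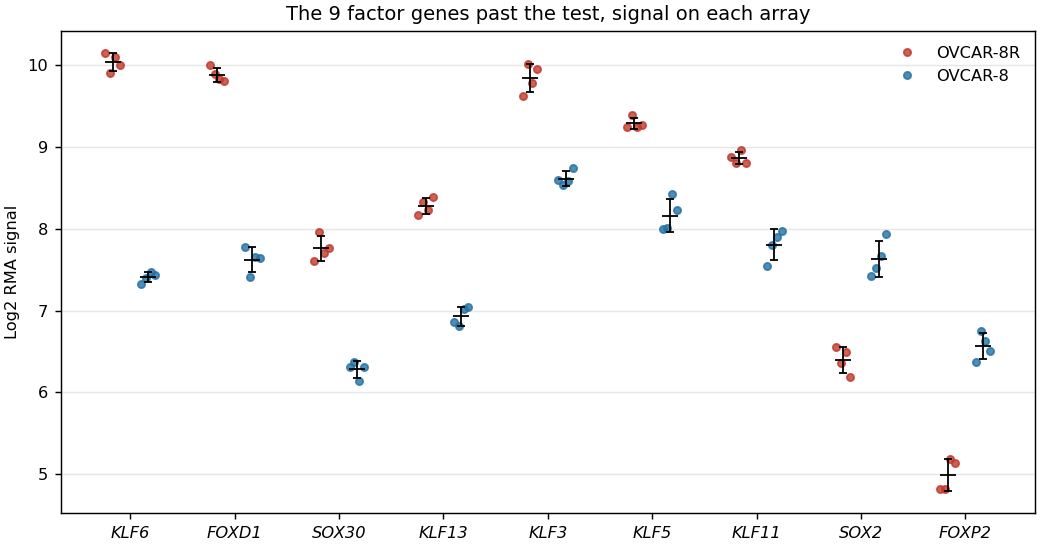
Log2 RMA signal on each of the 4 OVCAR-8R arrays (red) and 4 OVCAR-8 arrays (blue) for the 9 factor genes that rose or fell, with the mean and SD as black marks. The lines do not overlap in any of the 9 genes, and KLF6 and FOXD1 stand farthest apart, where the OVCAR-8R mean was 10.04 and the OVCAR-8 mean 7.41 for KLF6, and the OVCAR-8R mean 9.88 and the OVCAR-8 mean 7.62 for FOXD1.

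Counts are given by family. Of 17 KLF genes, 5 rose (29.4%) and none fell in limma or in the methods' t-test, and 11 were higher (64.7%) and 2 lower (11.8%) at any size, with a median difference of 0.49. Of 38 FOX genes tested, 1 rose and 1 fell, with a median of 0.049 over the 39. Of 19 SOX genes, 1 rose and 1 fell, with a median of -0.018. None of the 6 GATA genes rose or fell, with a median of 0.041. The 64 members other than KLF had a median of 0.037, and of the 63 tested 10 were higher and 10 lower (15.9% each) at any size. No test was made of a family against other genes.

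**Figure D2:**
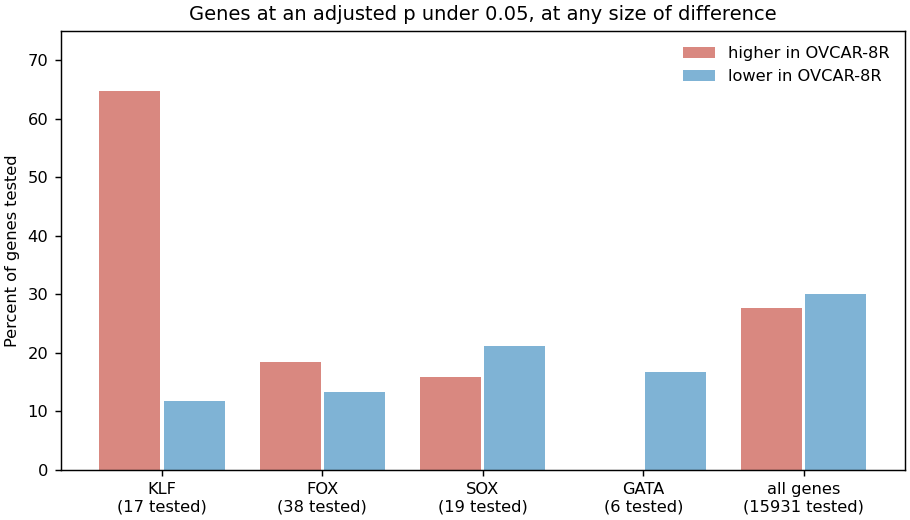
Percent of the genes tested in each family with an adjusted p under 0.05 at any size of difference, higher (red) or lower (blue) in OVCAR-8R, beside the same over all 15931 genes. Higher genes make up 64.7% of the KLF family, against 27.6% of all genes, whereas both FOX bars and both SOX bars are shorter than those of all genes.

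KLF6, a GC box-binding activator described as a tumour suppressor in prostate cancer, gave the largest difference of all 81 members. Its signal was 10.15, 9.90, 10.10 and 10.01 in OVCAR-8R spheroids, against 7.32, 7.40, 7.48 and 7.43 in OVCAR-8 spheroids. The lines were apart on every array, by 2.63 (SE 0.077), or 6.19-fold, where the OVCAR-8R mean was 10.04 ± 0.11 and the OVCAR-8 mean 7.41 ± 0.065 (SD, limma adjusted p = 4.60e-09). The probeset does not separate its splice forms, which differ in function. KLF6 lies on chromosome 10 and its call held in all 23 alternative settings, with differences between 2.55 and 2.72.

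KLF5, an activator of growth genes in epithelia and the gut, read 9.25, 9.39, 9.25 and 9.27 in OVCAR-8R spheroids, against 7.99, 8.01, 8.42 and 8.23 in OVCAR-8 spheroids. OVCAR-8R arrays were all higher, by 1.13 (SE 0.10, adjusted p = 9.97e-06), or 2.18-fold. Its neighbour on chromosome 13, the repressor gene KLF12, with no protein-coding gene between them in RefSeq, read 8.32, 8.85, 8.54 and 8.81 in OVCAR-8R spheroids, against 8.59, 8.74, 8.82 and 8.91 in OVCAR-8 spheroids, and these values overlapped, with a difference of -0.13 (SE 0.13, adjusted p = 0.419).

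The other activators gave smaller differences. KLF4, which arrests growth in epithelia and is a reprogramming factor, read 7.39, 7.52, 7.29 and 7.25 in OVCAR-8R spheroids, against 6.65, 6.58, 6.42 and 6.52 in OVCAR-8 spheroids. The arrays of the lines were apart, yet the difference of 0.82 (SE 0.086) is below 2-fold (adjusted p = 2.34e-05). KLF2, known for keeping endothelium and T cells quiescent, had 9.24, 9.08, 9.14 and 8.92 in OVCAR-8R spheroids, against 8.68, 8.55, 8.40 and 8.19 in OVCAR-8 spheroids. These values also did not overlap and differed by 0.64 (SE 0.11, adjusted p = 9.53e-04). KLF7, an activator in neurons and fat, overlapped between the lines, at 9.09, 9.52, 8.96 and 9.38 in OVCAR-8R spheroids, against 8.92, 8.85, 9.07 and 9.0 in OVCAR-8 spheroids (adjusted p = 0.0883), where OVCAR-8R arrays 1, 2 and 4 stood above all OVCAR-8 arrays and array 3 within their range. KLF1, the erythroid activator, differed by -0.032 (SE 0.12, adjusted p = 0.854). Of the 6 activators, 2 rose (33.3%) and 4 were higher at any size (66.7%), beside 8.37% and 27.6% of all genes.

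KLF3, a repressor that recruits CtBP and acts in erythroid cells and fat of mice, had a signal of 9.63, 10.01, 9.78 and 9.96 in OVCAR-8R spheroids, against 8.59, 8.53, 8.58 and 8.75 in OVCAR-8 spheroids. No array overlapped, and the difference was 1.23 (SE 0.098, adjusted p = 3.63e-06), or 2.35-fold. KLF8, of the same group, was near the floor of the arrays, at 5.18, 5.10, 5.51 and 5.42 in OVCAR-8R spheroids, against 4.73, 4.64, 4.77 and 4.88 in OVCAR-8 spheroids, where the OVCAR-8 mean falls under the limit for dim probesets (5.16). All OVCAR-8R values were above all OVCAR-8 values and the difference was 0.55 (SE 0.10, adjusted p = 0.00145), with its size uncertain at such low signal. With KLF12 above, 1 of the 3 CtBP-binding members rose (33.3%, against 8.37% of all genes).

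KLF13, a SIN3A-binding factor that activates the chemokine gene CCL5 in T cells, had 8.17, 8.33, 8.23 and 8.39 in OVCAR-8R spheroids, against 6.87, 6.81, 7.02 and 7.05 in OVCAR-8 spheroids. The groups were separate, by 1.35 (SE 0.084, adjusted p = 7.25e-07), or 2.55-fold. A second, dimmer KLF13 probeset averaged 5.66 on OVCAR-8R arrays and 5.72 on OVCAR-8 arrays and did not pass (difference -0.057, adjusted p = 0.656), and the mean of both probesets differed by 0.65, below 2-fold.

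KLF11, a TGF-beta-inducible repressor of the same group, read 8.88, 8.81, 8.96 and 8.80 in OVCAR-8R spheroids, against 7.54, 7.80, 7.90 and 7.97 in OVCAR-8 spheroids. The lines were apart by 1.06 (SE 0.10, adjusted p = 1.17e-05), or 2.08-fold, which is just past the limit, and without OVCAR-8 array 1 the difference was 0.97. KLF10, its close relative and also induced by TGF-beta, read 9.59, 9.37, 9.77 and 9.36 in OVCAR-8R spheroids, against 9.11, 9.03, 9.02 and 9.25 in OVCAR-8 spheroids, apart on all arrays at 0.42 (SE 0.11, adjusted p = 0.00805). KLF16, a repressor studied in brain, lay at 8.47 to 8.60 in OVCAR-8R and 7.99 to 8.15 in OVCAR-8, with no overlap and a difference of 0.49 (SE 0.069, adjusted p = 1.97e-04). KLF14, a metabolic regulator in fat, lay at 7.42 to 7.76 in OVCAR-8R and 6.96 to 7.41 in OVCAR-8, a difference of 0.37 (SE 0.11, adjusted p = 0.0186). The exception in the group was KLF9, a partner of steroid receptors, which was lower at 7.31, 7.47, 7.46 and 7.06 in OVCAR-8R spheroids, against 7.66, 7.79, 7.73 and 7.50 in OVCAR-8 spheroids. Its difference was -0.35 (SE 0.11, adjusted p = 0.0208), with every OVCAR-8R array below every OVCAR-8 array. Of the 6 SIN3A-binding members, 2 rose (33.3%, against 8.37% of all genes). At any size 5 were higher and 1 was lower (83.3% and 16.7%, against 27.6% and 30.0% of all genes).

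KLF15, a regulator of glucose and amino acid use in muscle and liver, had the most negative difference of the family, at 6.34, 5.95, 6.29 and 6.16 in OVCAR-8R spheroids, against 7.07, 7.02, 6.69 and 6.84 in OVCAR-8 spheroids. It was lower on every OVCAR-8R array, and the difference of -0.72 (SE 0.11, adjusted p = 4.37e-04) is below 2-fold. KLF17, active in germ cells and the early embryo, differed by -0.054 (SE 0.090) and overlapped. Across the family the lines overlapped only in KLF7, KLF1, KLF17 and KLF12. All OVCAR-8R arrays lay above all OVCAR-8 arrays in 11 of the 17 KLF genes and below them in 2, beside 27.3% and 29.5% of all genes.

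**Figure D3:**
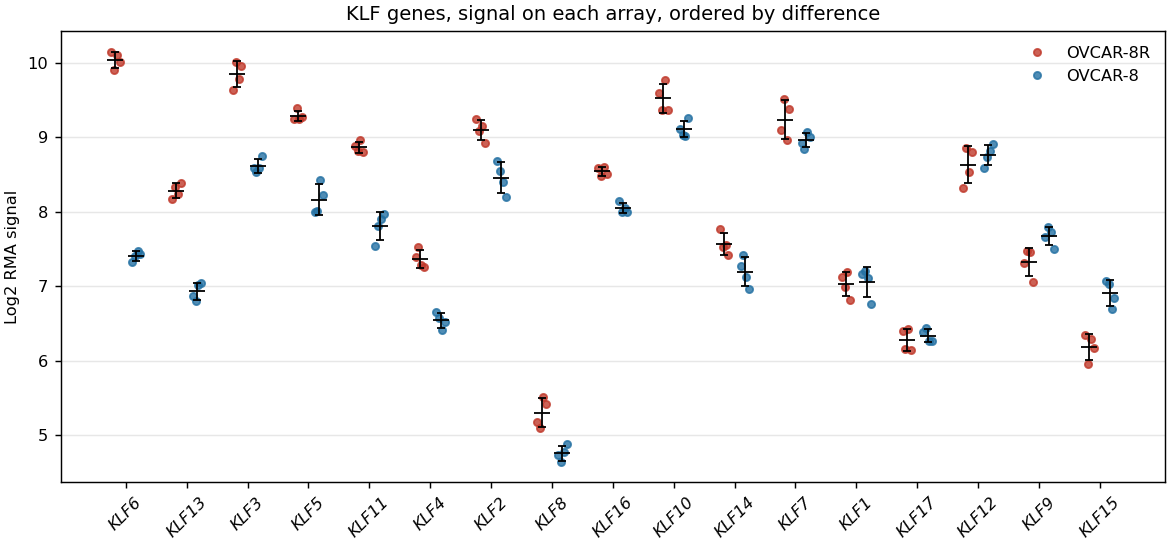
Log2 RMA signal of the 17 KLF genes on each OVCAR-8R (red) and OVCAR-8 (blue) array, with mean and SD, ordered by the difference between the lines. The 11 genes from KLF6 to KLF14 lie higher in OVCAR-8R with no overlap, and KLF9 and KLF15 lie lower with none. Of all genes, 27.3% lie higher and 29.5% lower with no overlap.

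Among the FOX genes, FOXD1 on chromosome 5, a factor of kidney stroma and the developing retina in mice, was the only one that rose. Its signal was 10.00, 9.90, 9.83 and 9.80 in OVCAR-8R spheroids, against 7.78, 7.41, 7.66 and 7.65 in OVCAR-8 spheroids. The groups were far apart, with an OVCAR-8R mean of 9.88 ± 0.086, an OVCAR-8 mean of 7.62 ± 0.16 (SD) and a difference of 2.26 (SE 0.092, adjusted p = 4.06e-08), or 4.78-fold. The 2 other FOXD genes with a probeset of their own did not follow it. FOXD2 differed by 0.20 (SE 0.13) and FOXD3, a neural crest factor, by -0.18 (SE 0.089), both with overlapping arrays. FOXD4 was read only by probesets annotated to it together with FOXD4L genes, so it is not among the members. These were lower in OVCAR-8R, by -0.39 (limma adjusted p = 0.00714) to -0.17 (limma adjusted p = 0.211).

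FOXP2 on chromosome 7, a repressor studied in speech and neural circuits, was the only FOX gene that fell. It read 4.82, 4.82, 5.19 and 5.14 in OVCAR-8R spheroids, against 6.38, 6.75, 6.62 and 6.50 in OVCAR-8 spheroids, without overlap and with a difference of -1.57 (SE 0.12, adjusted p = 2.34e-06). The OVCAR-8R mean is under the limit for dim probesets (5.11), so the size is uncertain, and under a stricter filter on low signal the gene was not tested. Its relatives with the same dimerization domain did not pass. FOXP1 read 7.82 to 7.95 in OVCAR-8R and 7.80 to 8.05 in OVCAR-8 with a difference of -0.031 (SE 0.078), FOXP3, the regulatory T cell factor, differed by 0.14 (SE 0.084), and FOXP4 by 0.25 (SE 0.095, adjusted p = 0.0501).

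A pair of FOX genes came close to 2-fold. FOXK1, a repressor of autophagy genes that also works through SIN3A, read 8.90, 8.94, 8.87 and 9.04 in OVCAR-8R spheroids, against 8.08, 7.87, 8.09 and 7.92 in OVCAR-8 spheroids. No array overlapped, and the difference was 0.95 (SE 0.079, adjusted p = 5.17e-06). FOXK2, its closest relative, read 9.85, 9.99, 9.89 and 9.95 in OVCAR-8R spheroids, against 10.15, 9.93, 10.16 and 10.03 in OVCAR-8 spheroids, which overlapped and gave -0.15 (SE 0.077, adjusted p = 0.137). FOXF2, a factor of gut and other mesenchyme, read 7.17, 6.86, 7.06 and 6.97 in OVCAR-8R spheroids, against 8.12, 7.92, 7.96 and 7.71 in OVCAR-8 spheroids. OVCAR-8R was lower on every array, with a difference of -0.91 (SE 0.10, adjusted p = 4.18e-05). FOXF1, its paralog in lung and gut mesenchyme, was also lower on every array, at 6.13 to 6.38 in OVCAR-8R and 6.49 to 6.76 in OVCAR-8, a difference of -0.37 (SE 0.091, adjusted p = 0.00602). Without OVCAR-8R arrays 1 and 3, FOXK1 reached 1.0 and FOXF2 -1.01, and both then passed the 2-fold limit.

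Some FOX genes lie next to each other on a chromosome, and their values are given side by side. On chromosome 6, FOXQ1, which has 1 protein-coding gene between it and FOXF2, differed by 0.20 (SE 0.11) where FOXF2 differed by -0.91. On chromosome 16, FOXC2 and FOXL1, next to each other, differed by 0.019 (SE 0.14) and 0.14 (SE 0.13), with FOXF1 1 gene away at -0.37. On chromosome 1, FOXE3, a lens factor, and FOXD2 are adjacent and differed by 0.28 and 0.20.

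FOXM1, which drives genes of mitosis, was higher on all OVCAR-8R arrays, at 8.96, 9.25, 9.09 and 9.19 in OVCAR-8R spheroids, against 8.73, 8.46, 8.88 and 8.80 in OVCAR-8 spheroids. The difference was 0.41 (SE 0.11, adjusted p = 0.00917), well under 2-fold. Its target genes were mostly lower. Of 14 genes known as FOXM1 targets, none rose in limma or in the methods' t-test, 2 fell (14.3%, against 8.37% of all genes), and at any size 2 were higher and 10 lower (71.4%, against 30.0% of all genes), with a median of -0.27. CENPF, a kinetochore protein, read 8.85, 9.08, 9.16 and 9.08 in OVCAR-8R spheroids, against 10.70, 10.64, 10.67 and 10.71 in OVCAR-8 spheroids. NEK2, a centrosome kinase, differed by -1.62 (SE 0.080) and CENPF by -1.64 (SE 0.081), both with no overlap (adjusted p = 1.44e-07 for NEK2 and 1.50e-07 for CENPF). CDC25B and CDC20 were the 2 targets higher in OVCAR-8R, by 0.74 (SE 0.11) and 0.34 (SE 0.066).

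The FOXO genes, which carry out growth arrest and stress responses when insulin and AKT signalling is low, were FOXO1, FOXO3 and FOXO4 here, and none of their own probesets passed at any size, nor at an unadjusted p under 0.05. FOXO1 read 8.73, 8.22, 8.58 and 8.04 in OVCAR-8R spheroids, against 8.67, 8.86, 8.68 and 8.58 in OVCAR-8 spheroids, with OVCAR-8R arrays 2 and 4 clearly below all OVCAR-8 arrays, array 3 just below them and array 1 within their range. The difference was -0.31 (SE 0.15, adjusted p = 0.112). FOXO4 differed by -0.24 (SE 0.12). FOXO3, which has a near-identical copy (FOXO3B), differed by 0.10 (SE 0.17) on the probeset annotated to it alone. A brighter probeset annotated to FOXO3 and FOXO3B together averaged 10.52 on OVCAR-8R arrays and 11.03 on OVCAR-8 arrays and was lower without reaching 2-fold, by -0.51 (SE 0.067, limma adjusted p = 1.55e-04), so the probesets of FOXO3 disagree, and the share of each gene in the common signal is not known. Of 18 genes whose proteins control FOXO proteins, 1 rose and 1 fell (5.56% each, against 8.37% of all genes in each direction), and at any size 10 were higher (55.6%, against 27.6% of all genes) and 3 lower (16.7%, against 30.0%). SFN, the epithelial 14-3-3 protein (sigma) of a family that holds phosphorylated FOXO in the cytoplasm, read 11.33, 11.26, 11.16 and 11.17 in OVCAR-8R spheroids, against 7.10, 6.96, 7.22 and 6.73 in OVCAR-8 spheroids, a difference of 4.23 (SE 0.11, adjusted p = 1.89e-09). SKP2, a ubiquitin ligase subunit that sends FOXO1 to the proteasome, was lower at 8.91, 9.25, 8.89 and 9.31 in OVCAR-8R spheroids, against 11.81, 11.96, 11.78 and 11.66 in OVCAR-8 spheroids, a difference of -2.71 (SE 0.12, adjusted p = 5.70e-08).

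FOXO target genes went both ways. Of 15 tested, 3 rose and 3 fell (20.0% each, against 8.37% of all genes in each direction). At any size 8 were higher (53.3%, against 27.6% of all genes) and 4 lower (26.7%, against 30.0%), with a median of 0.22. FBXO32, the muscle atrophy ubiquitin ligase, rose by 1.63 (SE 0.14), TXNIP, an inhibitor of thioredoxin, by 1.60 (SE 0.14), and GADD45A, a DNA damage-inducible gene, by 1.22 (SE 0.10). The sestrins SESN1 and SESN3, which restrain mTOR, had differences of -2.13 (SE 0.15) and -1.34 (SE 0.098), and BCL2L11, a cell death inducer of the BCL2 family, had -1.19 (SE 0.12). SESN1 read 5.81, 6.46, 6.23 and 6.38 in OVCAR-8R spheroids, against 8.21, 8.18, 8.51 and 8.48 in OVCAR-8 spheroids, with a wide gap between the lines. The calls of GADD45A and BCL2L11 did not hold in the treat test (adjusted p = 0.275 for GADD45A and 0.672 for BCL2L11).

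The remaining FOX genes lay mostly near no difference, and 35 of the 39 differed by less than 0.5. FOXJ3, an activator in muscle and germ cells of mice, was bright on every array, at 10.64, 10.96, 10.74 and 11.02 in OVCAR-8R spheroids, against 10.89, 10.94, 10.98 and 11.11 in OVCAR-8 spheroids, and its values overlapped, with a difference of -0.14 (SE 0.10, adjusted p = 0.288). FOXN3, a checkpoint repressor, was lower on every OVCAR-8R array, at 8.10, 8.26, 8.00 and 8.42 in OVCAR-8R spheroids, against 8.52, 8.79, 8.63 and 8.76 in OVCAR-8 spheroids, with a difference of -0.48 (SE 0.11, adjusted p = 0.00369). FOXL2, the granulosa cell factor of the ovary, had 7.89, 7.56, 7.90 and 7.58 in OVCAR-8R spheroids, against 7.41, 7.25, 7.26 and 7.13 in OVCAR-8 spheroids, apart by 0.47 (SE 0.10, adjusted p = 0.00373). FOXA1, a pioneer factor of endoderm and breast, differed by -0.37 (SE 0.11, adjusted p = 0.0148), with an overlap at 1 OVCAR-8R array of 7.59 beside an OVCAR-8 array of 7.58. FOXJ1, the master gene of motile cilia in the fallopian tube, differed by -0.25 (SE 0.12) with overlap, and of 14 ciliated cell genes tested none rose or fell by either test (median 0.038, with 4 higher and 3 lower at an unadjusted p under 0.05). FOXN2, FOXE3 and FOXJ2 were higher at any size with differences of 0.29, 0.28 and 0.27. FOXR2, not tested, read 4.34 to 4.55 in OVCAR-8R and 4.28 to 4.63 in OVCAR-8. The other FOX genes, of classes A, B, E, H, I, N, R and S, lay between -0.27 for FOXB1 and 0.16 for FOXI2, with overlapping arrays.

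**Figure D4:**
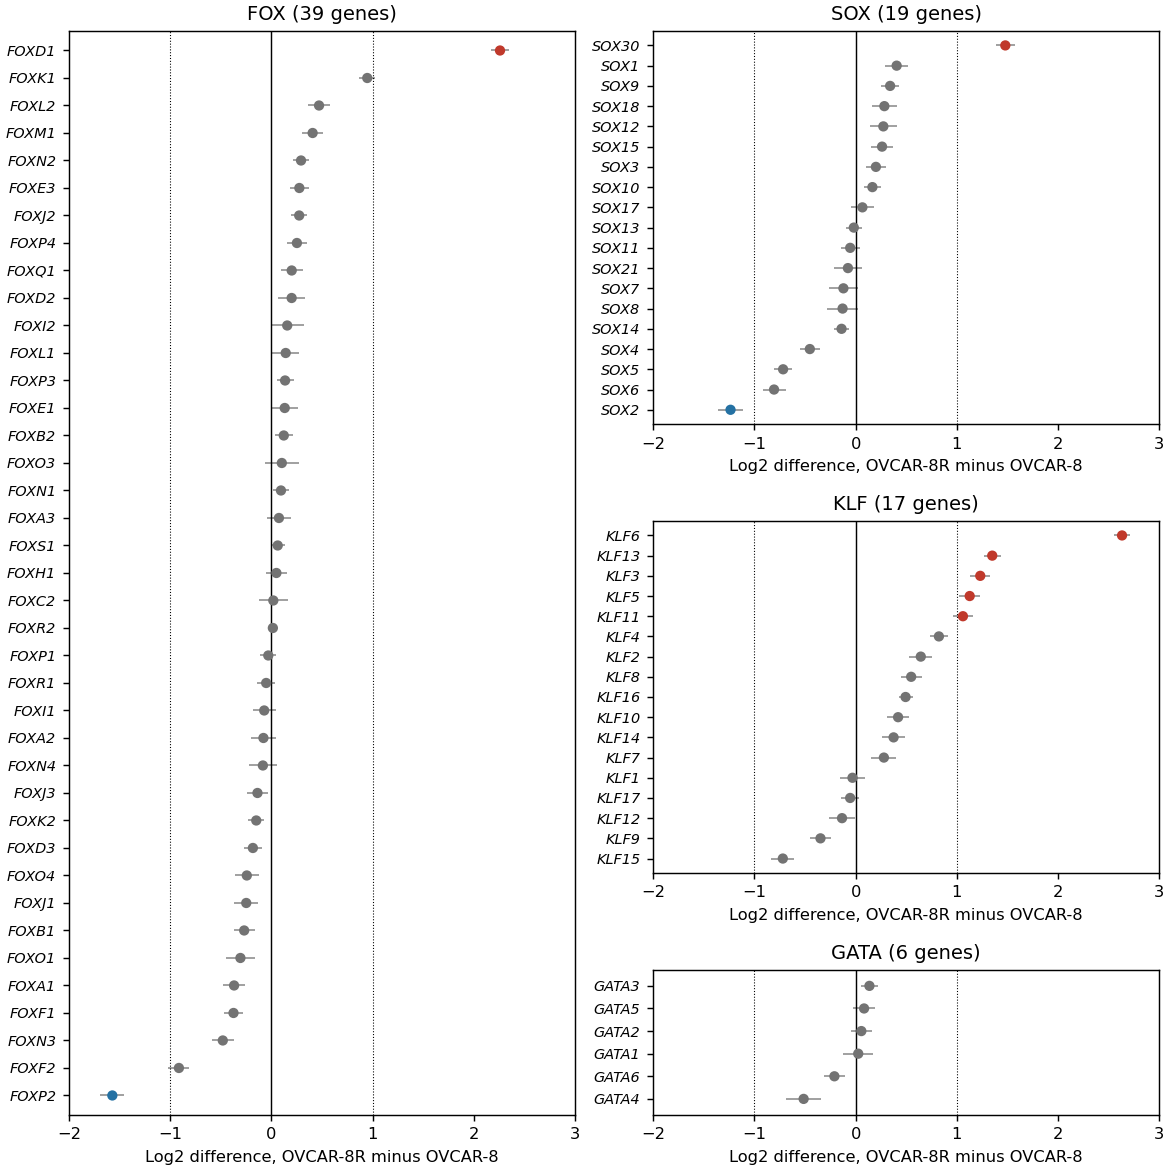
Difference in log2 signal (OVCAR-8R minus OVCAR-8, points) and its SE (lines) for all 81 genes by family, with genes that rose in red, genes that fell in blue and dotted lines at 2-fold; FOXR2, dim in both lines, was not tested. FOX, SOX and GATA genes cluster around 0 with few outside the dotted lines, whereas 12 of the 17 KLF genes lie to the right of 0.

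SOX30 on chromosome 5, a factor of the late stages of sperm formation in mice, was the only SOX gene that rose. Its signal was 7.61, 7.97, 7.70 and 7.77 in OVCAR-8R spheroids, against 6.31, 6.38, 6.14 and 6.31 in OVCAR-8 spheroids. The lines did not overlap, and the difference was 1.48 (SE 0.094, adjusted p = 7.92e-07), or 2.79-fold. It is the sole member of its SOX group.

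SOX2 on chromosome 3, a pluripotency and neural stem cell factor, was the only SOX gene that fell. It read 6.55, 6.36, 6.49 and 6.19 in OVCAR-8R spheroids, against 7.42, 7.52, 7.67 and 7.93 in OVCAR-8 spheroids. The difference was -1.24 (SE 0.12, adjusted p = 1.77e-05), where OVCAR-8R averaged 6.40 ± 0.16 and OVCAR-8 7.64 ± 0.22 (SD). Its closest relatives SOX1 and SOX3, neural factors of the same group, had positive differences, of 0.40 (SE 0.12, adjusted p = 0.0143) and 0.20 (SE 0.10, adjusted p = 0.129), and overlapped between the lines. SOX3 read 8.54, 8.17, 8.40 and 8.15 in OVCAR-8R spheroids, against 8.22, 8.13, 8.07 and 8.03 in OVCAR-8 spheroids. PAX6, an eye and neural factor that pairs with SOX2 on lens enhancers, fell by 2.07 on the log2 scale, at 6.49, 6.34, 6.42 and 6.29 in OVCAR-8R spheroids, against 8.48, 8.52, 8.39 and 8.41 in OVCAR-8 spheroids (adjusted p = 1.53e-08). It was the only one of 6 SOX partner genes tested that rose or fell (16.7% fell, against 8.37% of all genes). At any size 2 partners were lower (33.3%, against 30.0% of all genes), the other being POU3F2 at -0.58 (SE 0.15, limma adjusted p = 0.00791). Another partner, 1 of the 6, was higher at an unadjusted p under 0.05. The partners POU2F1 and POU5F1 had no probeset of their own. Among 3 pluripotency genes tested besides SOX2, none rose or fell by either test (1 higher and 1 lower at an unadjusted p under 0.05), and SALL4, a zinc finger factor of embryonic stem cells, differed by 0.85 (SE 0.11). The pluripotency genes POU5F1, NANOG and TDGF1 had no probeset of their own, and ZFP42 and DPPA4 were too dim in both lines to be tested.

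SOX5 and SOX6, long SOX proteins of group D that act together in cartilage, were both lower. SOX6 read 5.49, 5.58, 5.29 and 5.14 in OVCAR-8R spheroids, against 6.12, 6.33, 6.01 and 6.26 in OVCAR-8 spheroids. SOX5 read 5.27, 5.47, 5.49 and 5.32 in OVCAR-8R spheroids, against 5.94, 6.07, 6.20 and 6.19 in OVCAR-8 spheroids. Neither gene overlapped between the lines, with differences of -0.81 (SE 0.11) for SOX6 and -0.72 (SE 0.087) for SOX5, both below 2-fold (adjusted p = 1.96e-04 for SOX6 and 7.11e-05 for SOX5). SOX13, the remaining member of the group, differed by -0.018 (SE 0.077) with overlap.

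SOX4, a group C factor active in many carcinomas and in TGF-beta responses, was lower on every OVCAR-8R array, at 7.82, 7.41, 7.64 and 7.46 in OVCAR-8R spheroids, against 7.99, 8.00, 8.15 and 8.00 in OVCAR-8 spheroids, with a difference of -0.45 (SE 0.099, adjusted p = 0.00332). SOX11 and SOX12, of the same group, differed by -0.054 (SE 0.096) and 0.27 (SE 0.13) and overlapped. SOX9, which drives cartilage and testis formation, was higher at 8.37, 8.21, 8.38 and 8.01 in OVCAR-8R spheroids, against 7.86, 7.89, 7.92 and 7.93 in OVCAR-8 spheroids, with a difference of 0.34 (SE 0.091, adjusted p = 0.0104). SOX8 and SOX10, its group E relatives, differed by -0.13 (SE 0.15) and 0.17 (SE 0.084). SOX17, the endoderm and endothelial factor found in Müllerian epithelium, lay at 6.89 to 7.25 in OVCAR-8R and 6.83 to 7.20 in OVCAR-8 and differed by 0.066 (SE 0.11, adjusted p = 0.663). SOX18, of the same group F and known from vessels, read 8.21, 7.87, 8.31 and 7.86 in OVCAR-8R spheroids, against 7.94, 7.83, 7.70 and 7.65 in OVCAR-8 spheroids, with a difference of 0.28 (SE 0.12, adjusted p = 0.0799). SOX7, SOX14, SOX15 and SOX21 differed by -0.12, -0.14, 0.26 and -0.076 and did not pass at any size.

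No GATA gene rose or fell in limma or in the methods' t-test, and 1 of the 6 had an unadjusted p under 0.05. That gene, GATA4, a granulosa cell, heart and endoderm factor, read 7.42, 7.01, 7.46 and 6.75 in OVCAR-8R spheroids, against 7.65, 7.66, 7.95 and 7.44 in OVCAR-8 spheroids. OVCAR-8R arrays 2 and 4 were clearly below every OVCAR-8 array, array 1 was just below them and array 3 reached above the lowest of them. The GATA4 difference of -0.51 (SE 0.17) passed the p threshold without reaching 2-fold (adjusted p = 0.0295). Its OVCAR-8R values lay along the array split given above, and the part of that split in the difference was not tested. GATA6, an endoderm factor also present in ovarian surface epithelium, read 8.70, 8.82, 8.87 and 8.69 in OVCAR-8R spheroids, against 9.05, 8.95, 9.20 and 8.72 in OVCAR-8 spheroids and overlapped, with a difference of -0.21 (SE 0.11, adjusted p = 0.128). GATA5, of the same group, differed by 0.083 (SE 0.11). GATA2 and GATA3, factors of blood progenitors and T cells, differed by 0.056 (SE 0.10) and 0.14 (SE 0.081), and GATA1, the erythroid factor, by 0.025 (SE 0.15). Of 12 GATA coregulators, none rose or fell by either test, and at any size (as at an unadjusted p under 0.05) 4 were higher and 3 lower (33.3% and 25.0%, against 27.6% and 30.0% of all genes), with a median of 0.031.

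Partners and relatives of the KLF and SOX families were set beside them. The 8 SP factors, which bind the same GC boxes, had a median of 0.082, none had risen or fallen by either test, 2 were higher and 1 lower at an unadjusted p under 0.05, and SP1, the ubiquitous activator, was lower without reaching 2-fold, at 9.59, 9.60, 9.64 and 9.71 in OVCAR-8R spheroids, against 9.83, 9.76, 9.99 and 9.92 in OVCAR-8 spheroids, with a difference of -0.24 (SE 0.075, adjusted p = 0.0235). Of 9 proteins that KLF factors recruit or that degrade them, none rose (3 were higher at an unadjusted p under 0.05) and 2 fell by either test (22.2%, against 8.37% of all genes), with a median of -0.44. Neither fall held in the treat test (adjusted p = 0.283 for FBXW7 and 1.0 for HDAC1). FBXW7, the ubiquitin ligase subunit that degrades KLF5, read 5.61, 6.04, 5.87 and 6.07 in OVCAR-8R spheroids, against 7.14, 7.08, 7.05 and 7.28 in OVCAR-8 spheroids, without overlap, with a difference of -1.24 (SE 0.11, adjusted p = 7.19e-06). HDAC1, the deacetylase of the SIN3A complex, read 10.29, 10.08, 10.32 and 10.10 in OVCAR-8R spheroids, against 11.28, 11.15, 11.28 and 11.32 in OVCAR-8 spheroids, also without overlap, with a difference of -1.06 (SE 0.082, adjusted p = 2.99e-06), and it was below 2-fold with cyclic loess (-0.93) or without OVCAR-8R arrays 2 and 4 (-0.95). At any size 3 of the 9 were higher and 5 lower (33.3% and 55.6%, against 27.6% and 30.0% of all genes). CTBP2, a corepressor of KLF3, was higher without reaching 2-fold, by 0.60 (SE 0.081), and SIN3A differed by 0.23 (SE 0.12). HDAC2, SAP30 and WWP1 were lower without reaching 2-fold, with differences of -0.75 (SE 0.072), -0.45 (SE 0.13) and -0.44 (SE 0.10).

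Among 16 other HMG box genes, none rose (3 were higher at an unadjusted p under 0.05) and 2 fell by either test (12.5%, against 8.37% of all genes), and at any size 2 were higher and 5 lower (12.5% and 31.2%, against 27.6% and 30.0%). LEF1, the nuclear partner of beta-catenin in WNT signalling, read 6.38, 6.74, 6.39 and 6.51 in OVCAR-8R spheroids, against 9.05, 8.94, 9.03 and 9.32 in OVCAR-8 spheroids. The lines were far apart and the difference was -2.58 (SE 0.11, adjusted p = 5.37e-08). HMGB3, an architectural protein of chromatin, read 7.14, 7.54, 7.41 and 7.34 in OVCAR-8R spheroids, against 9.17, 8.94, 9.05 and 9.06 in OVCAR-8 spheroids, with a difference of -1.69 (SE 0.095, adjusted p = 3.52e-07).

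**Figure D5:**
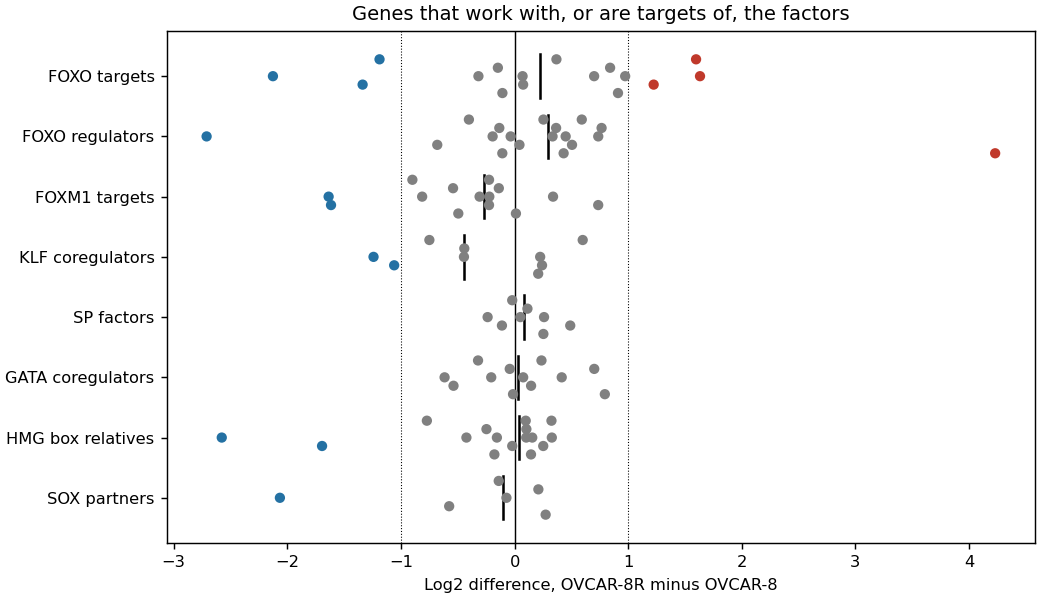
Difference in log2 signal (OVCAR-8R minus OVCAR-8) of each measured gene in 8 lists of partners, relatives, regulators and targets of the factors, with genes that rose in red, genes that fell in blue, the list median as a black bar and dotted lines at 2-fold. FOXM1 targets and KLF coregulators have medians left of 0 (-0.27 and -0.44), and FOXO targets hold genes on both sides.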

How the data were processed

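RNA of 4 OVCAR-8R and 4 OVCAR-8 spheroid samples was read on Affymetrix Human Gene ST arrays, which have no read depth. Precision is limited by the small number of arrays. The authors computed probeset signals by RMA in Affymetrix Expression Console, which corrects background, quantile-normalizes arrays and summarises probes, and deposited linear intensities for 33297 probesets. Log2 was taken here. Probesets whose mean lay under the first quartile in each line (log2 5.11 in OVCAR-8R and 5.16 in OVCAR-8) were dropped, as in the methods, which kept 25628. Names came from the platform annotation, and all 82 member probesets were found in RefSeq by gene identifier. The 12083 unnamed probesets name nothing here. Of the 1754 with several genes, only those shared by FOXO3 and FOXO3B and by FOXD4 and FOXD4L genes are reported, and none counts as a member.

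Differences were fitted in R (version 4.3.3) with the functions lmFit and eBayes from limma (version 3.58.1), and p-values were adjusted by Benjamini-Hochberg over all probesets kept. The procedure was first tested on simulated data. The labels call the arrays biological replicates without naming the step at which they parted, so p-values measure the spread between arrays, which may be technical. No block was used, since the methods name none. Deviations of same-numbered arrays of the lines correlated with r from -0.32 to 0.44 over 4 pairs, so they had no common direction.

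Members, lists and alternatives were chosen with earlier results of these data known. The rule for naming took every member that rose or fell, the 3 brightest others of each family, members with differences between 0.8 and 1.2 in size, and up to 4 genes of each list in each direction. All other genes named were chosen after their values were seen. Promoters are from RefSeq (GRCh38.p14), at a single start per gene. The alternatives were other filters, thresholds and scalings, the methods' t-test, an intensity trend, the treat test, array weights, the mean of a gene's probesets, a replicate block and leaving out arrays.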

Additional observations from a re-analysis of the deposited data

Results flagged for a closer look

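Over the 47 genes named by rule, 94 groups of 4 arrays were searched for an array far from the other 3, and 2 were found, although chance alone picks out about 1 group in 20. KLF5 read 9.39 on OVCAR-8R array 2, while the other OVCAR-8R arrays lay between 9.25 and 9.27, and all were above the OVCAR-8 arrays. BCL2L11, a FOXO target, read 6.77 on OVCAR-8R array 3, while the others lay between 7.06 and 7.12, and all were below the OVCAR-8 arrays.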

How the results depend on the processing

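With no limit on size, 21 members (11 of them KLF genes) were higher and 12 lower in OVCAR-8R. The treat test, which asks for more than 2-fold, left 4 higher (2 KLF) and 1 lower, and ended the calls of KLF3, KLF5, KLF11 and SOX2. Among the other genes named by rule it ended those of HDAC1, FBXW7, GADD45A, BCL2L11 and LUM, so that none of the KLF coregulators fell. A filter at the median of signal left 1 lower gene, since FOXP2 was no longer tested, nor was LUM. Leaving out single arrays gave 6 to 7 members risen, 2 to 2 fallen and 4 to 5 KLF genes risen, and the loss was KLF11 without OVCAR-8 array 1 (0.97). With a replicate block, 7 members rose and 2 fell, and the block changed no call of a named gene. No label says whether the numbers pair the samples. The mean of both KLF13 probesets (0.65) ended that call. Leaving out pairs of OVCAR-8R arrays was chosen after seeing the data. Without arrays 2 and 4 the SOX median was 0.16 and the FOX median 0.17, and without arrays 1 and 3 the FOX median was -0.076 and FOXJ3 (0.0125), GATA5 (-0.063) and GATA2 (-0.071) changed sign. The KLF median stayed between 0.46 and 0.58 in 16 alternatives. The cause of these shifts was not tested. The methods' t-test and the rescalings gave 7 and 2.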
